A study of Mus musculus with 9 samples.

Results

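The transcription factors that set foregut, gastric and intestinal identity were followed in isolated stomach corpus glands of the mouse. The 10 genes Sox2, Gata4, Gata6, Pdx1, Foxq1, Spdef, Hnf4a, Klf4, Klf5 and Cdx2 were chosen by name from the 18423 genes of the deposited table, and all 10 have a row in it. Poly(A) RNA was sequenced in 9 libraries, 3 of each genotype. Arid1a_Het glands carried Atp4bCre, Rosa26NICD and Arid1aflox/+, that is, a loxP-flanked copy of the chromatin remodelling gene Arid1a beside a normal copy. Ctrl glands carried the same Atp4bCre and Rosa26NICD with no floxed Arid1a, and WT glands carried none of these alleles. Atp4b is a proton pump gene of parietal cells, so Cre, and with it the Notch intracellular domain (NICD) and the loss of Arid1a, is directed to cells that have used this promoter, while RNA was taken from whole glands. Ctrl against WT therefore differs in Cre and NICD together. In mice with tumours the glands were scraped from the tumour-bearing corpus, and in normal stomachs from the corresponding place. Age is not given in the sources used here. The sources also do not tie the libraries of a genotype to different mice, so the tests weigh library-to-library spread that could be technical in part.

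These factors act in a hierarchy along the gut tube. Sox2 marks the foregut and holds off intestinal fate, the GATA factors and Hnf4a switch on genes of the columnar digestive epithelium, Pdx1 marks the antrum, duodenum and pancreas, and Cdx2 commits endoderm to intestine. Foxq1, Spdef, Klf4 and Klf5 act later, in the mucous and secretory lineages and in the passage from dividing to mature cells. When Cdx2 is expressed in the mouse stomach, intestinal cells appear there, and for that reason the balance of Sox2 and Cdx2 is widely used to describe intestinal metaplasia.

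Levels are given as FPKM, a read count scaled to transcript length and library size. The libraries held 22651385 to 29478481 reads on genes, worked out from the steps of the FPKM values. Arid1a itself was at 8.94, 5.90 and 6.96 FPKM in Arid1a_Het 1 to 3, against 14.9, 13.3 and 16.2 FPKM in Ctrl 1 to 3 and 13.5, 7.79 and 12.0 FPKM in WT 1 to 3. All Arid1a_Het libraries lay below Ctrl, with log2FC -0.95 and adjusted p = 0.299, and they overlapped with WT. Markers of the corpus glands were present throughout: the surface mucous cell gene Gkn1 was at 14160 to 31820 FPKM and the chief cell pepsinogen Pgc at 5474 to 80300 FPKM, while the parietal cell gene Atp4a lay between 90.5 and 7584 FPKM. Tff1, another surface mucous cell marker, was at only 0.310 to 1.996 FPKM. Arid1a_Het 3 and Ctrl 1 also held transcripts of exocrine pancreas: Cpa1, a pancreatic carboxypeptidase, was at 77.49 FPKM in Arid1a_Het 3 and 148.3 FPKM in Ctrl 1 and was listed at 0 in the other 7 libraries. Over the 12 pancreas markers of the table the summed level was 1213 to 8735 FPKM in Arid1a_Het, 753 to 3791 FPKM in Ctrl and 2072 to 12660 FPKM in WT. The colipase gene Clps made up 690.9 of 1685 FPKM in Arid1a_Het 3, 1174 of 3791 FPKM in Ctrl 1 and 12650 of 12660 FPKM in WT 2. Leukocyte markers summed to 422 to 850 FPKM in Arid1a_Het, 428 to 718 FPKM in Ctrl and 54.1 to 114 FPKM in WT. In Ctrl against WT 5 of 10 tested rose, where 7.01% of all genes did. The mast cell protease genes Mcpt1 and Mcpt2 were at 264.4 and 334.5 of 609 FPKM in Arid1a_Het 1 and at 298 FPKM each of 718 FPKM in Ctrl 2. Ptprc, which defines leukocytes, did not pass in limma for Ctrl against WT (log2FC 0.79, adjusted p = 0.0779). Lyz2 and Adgre1 had log2FC -0.07 and -0.10 there. WT 2 had the lowest level of 6 of the 9 factors that could be tested, and no other library was lowest for more than 2.

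Each factor was tested between genotypes with limma on log2(FPKM + 1), fitted over all 11209 genes that reached an FPKM of 1 in at least 3 libraries. A gene was called at a Benjamini-Hochberg adjusted p under 0.05, and log2 fold changes (log2FC) on this scale understate the change of low genes. The fit tested 9 of the 10 factors, each at 1 FPKM or more in all 9 libraries. Cdx2 reached 1 FPKM in 1 library and was left out. Over all genes the median log2FC was 0.24 for Ctrl against WT, so values relative to this median are given as well. In such bulk samples fewer cells of a type and less RNA per cell cannot be told apart. Ctrl and WT libraries of the same number deviated together from their group means. A block fit of all 9 libraries, with replicate number as a term, is therefore quoted where it changes a call. The labels do not say what the numbers share, and the pairing was read from these same values. Calls gained only in the block fit are for that reason not separate evidence.

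Klf4 and Foxq1 were the most abundant of the factors. In Arid1a_Het glands the ranges of Klf4 and Foxq1 overlapped, those of Klf5, Hnf4a and Gata4 overlapped, and so did those of Gata6 and Spdef. In Ctrl glands Klf5, at 95.02 ± 2.46 FPKM (SD, n = 3), stood above Hnf4a and Gata4, and Spdef, at 46.1 ± 6.97 FPKM, stood above Gata6, at 31.3 ± 5.10 FPKM, with no overlap between libraries. In WT glands Klf4 averaged 273 ± 70.9 FPKM (SD, n = 3), Foxq1 161 ± 27.0 FPKM and Gata4 95.7 ± 12.7 FPKM, and the ranges of these 3 did not overlap. Klf5, Hnf4a and Gata6 followed in WT with overlapping ranges, at 64.1 ± 20.6, 52.5 ± 16.9 and 47.2 ± 1.97 FPKM. Spdef at 20.9 ± 5.72 FPKM overlapped with Sox2 at 14.5 ± 6.20 FPKM, and Sox2 with Pdx1 at 7.27 ± 6.30 FPKM, while Cdx2 was below 0.14 FPKM in all 3 WT libraries.

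**Figure D1:**
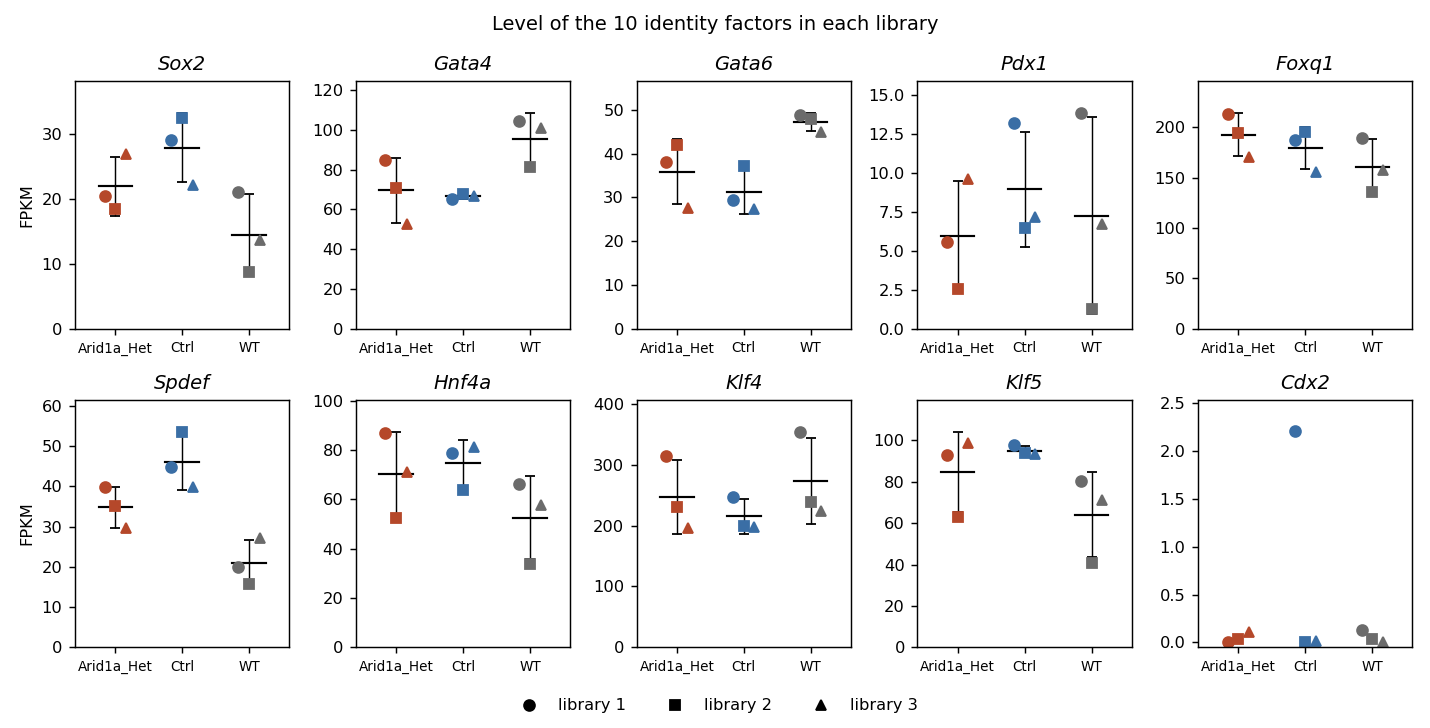
Level of each factor in FPKM (vertical axes, from 0) in the libraries of Arid1a_Het, Ctrl and WT, with 1 symbol per library and the mean ± SD of 3 libraries as bars (no mean is drawn for Cdx2). Spdef is higher in every Ctrl library than in every WT library, Gata4 and Gata6 are lower, and Cdx2 reaches 2.20 FPKM in Ctrl 1 alone.

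In Ctrl against WT, Spdef rose, and it was the only 1 of the 9 tested factors that passed, where 10.1% of all genes passed, 7.01% higher and 3.04% lower. At an unadjusted p under 0.05 there were 5 factors of 9, where 32.1% of all genes were. With the replicate block 4 of the 9 passed, Spdef, Sox2 and Hnf4a higher and Gata6 lower, where 22.1% of all genes did. With array weights 7 passed, where 50.9% of all genes did, and with median-ratio scaling 3, where 10.8% did. Over the 9 factors the median log2FC was 0.55, against 0.24 over all genes tested. The libraries of Ctrl and WT did not overlap for 5 factors, Sox2, Spdef, Klf5, Gata4 and Gata6, where 43.7% of all genes tested had groups that did not overlap, so this count is near the background.

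**Figure D2:**
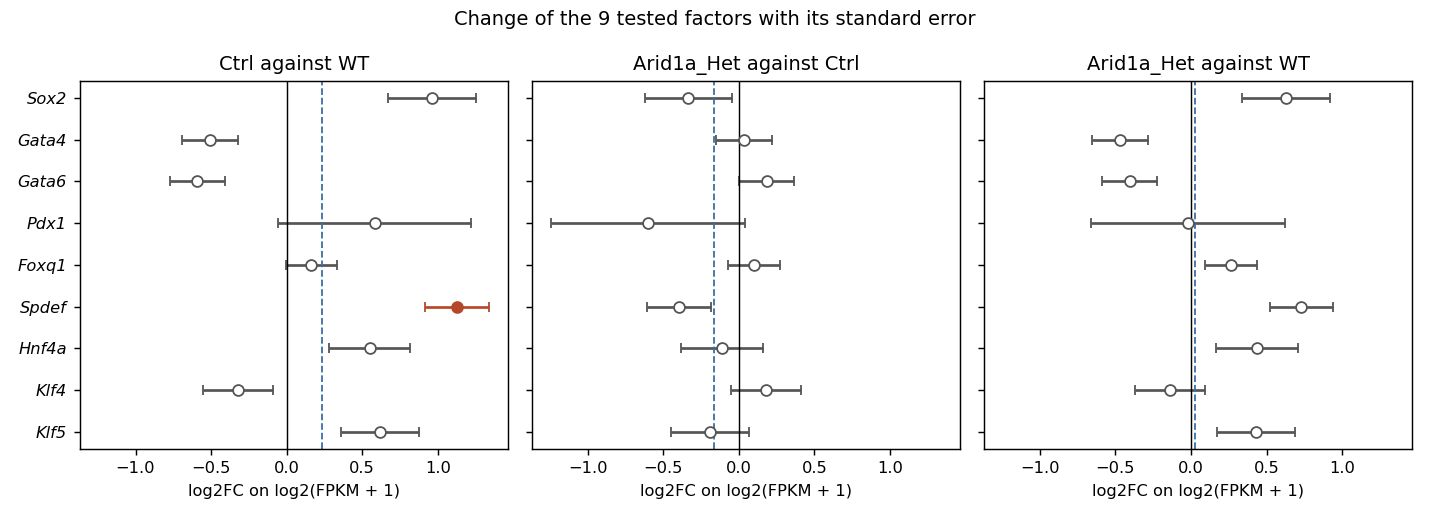
Change of the 9 tested factors (rows) as log2FC on the log2(FPKM + 1) scale (horizontal axes) with its standard error, in 1 panel per comparison of genotypes. The filled point is the single call, Spdef at 1.12 in Ctrl against WT, and the dashed line is the median of all genes tested, at 0.24 in that panel.

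Spdef, an ETS-family factor that drives mucous and goblet cell differentiation and is active in the mucous cells of antral glands, lies on chromosome 17 at 27714352 to 27728955 on the minus strand of GRCm38. Its level was 44.8, 53.6 and 39.8 FPKM in Ctrl 1 to 3, against 19.9, 15.8 and 27.1 FPKM in WT 1 to 3. Every Ctrl library stood above every WT library. The ratio of means was 2.20, with log2FC 1.12, SE 0.21, adjusted p = 0.0152 in limma, or 0.89 relative to the median of all genes. Without Ctrl 1 the adjusted p was 0.0501 and without Ctrl 2 it was 0.0548, and the call held in the other 20 of 22 alternatives, among them the fit without both libraries that held pancreas transcripts (log2FC 1.14, adjusted p = 0.0466). In Arid1a_Het 1 to 3 Spdef was at 39.8, 35.05 and 29.6 FPKM, between the other genotypes and clear of every WT library. Against WT this gave log2FC 0.73, SE 0.21, adjusted p = 0.106. Against Ctrl it gave log2FC -0.39, SE 0.21, adjusted p = 0.477, and the highest Arid1a_Het library and the lowest Ctrl library were level at 39.8 FPKM after rounding. Of 5 mucous neck cell markers 1 rose in Ctrl (2 with the replicate block), Cftr, a chloride channel, at a mean of 49.98 FPKM in Ctrl and 2.61 FPKM in WT. Of all genes 7.01% rose, and 22.1% passed with the replicate block. Muc6 and Tff2, which define mucous neck cells, did not pass in limma (log2FC -0.09 and 0.07, adjusted p = 0.920 and 0.924). The summed level of the 5 was 5597 to 11240 FPKM in Arid1a_Het, 6969 to 18550 FPKM in Ctrl and 5376 to 12020 FPKM in WT. Tff2 made up 15200 of 18550 FPKM in Ctrl 1. The part of these cells in the Spdef level was not tested.

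The promoters of Spdef and Hnf4a are shown because both factors were higher in Ctrl in the block fit and each window holds 1 of the motifs searched. NICD acts through the DNA-binding protein RBPJ, whose core motif was among them. Each is 300 bases of RefSeq sequence (GRCm38.p6), 250 before the start site and 50 after it, and capitals mark matches to 5 short motifs searched on both strands: the RBPJ core TGGGAA, the GATA motif GATAA, the CDX motif TTTATNG, the FOX motif TGTTTAC and the KLF motif CCACNCCC. Spdef lies at chr17:27728902-27729201 on the minus strand, and the first of 2 listed start sites of Hnf4a at chr2:163506607-163506906 on the plus strand.
Spdef: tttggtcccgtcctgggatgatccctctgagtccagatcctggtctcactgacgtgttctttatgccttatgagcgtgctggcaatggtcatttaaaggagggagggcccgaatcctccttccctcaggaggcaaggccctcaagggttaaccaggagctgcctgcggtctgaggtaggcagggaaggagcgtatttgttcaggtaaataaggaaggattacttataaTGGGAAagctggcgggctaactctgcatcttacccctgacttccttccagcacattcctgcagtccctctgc
Hnf4a: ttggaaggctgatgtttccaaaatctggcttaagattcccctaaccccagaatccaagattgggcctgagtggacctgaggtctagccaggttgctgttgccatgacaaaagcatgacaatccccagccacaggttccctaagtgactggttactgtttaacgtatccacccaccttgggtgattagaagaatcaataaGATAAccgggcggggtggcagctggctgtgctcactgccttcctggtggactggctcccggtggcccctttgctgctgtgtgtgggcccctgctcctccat
The Spdef window held 1 match, the RBPJ core on the strand of the gene at -22 to -17 from the start site, a motif found in 25.6% of 32851 promoters of this length. The Hnf4a window held 1 match, the GATA motif at -51 to -47, which 25.4% of promoters hold, and its second start site held none. No matches overlapped. Of the 10 factors 6 have promoters in the table, and among these Cdx2 held a KLF match (17.6% of promoters) and a FOX match (3.65%), while Sox2, Pdx1 and Klf4 held none of the 5 motifs, the CDX motif included (10.9% of promoters). A match is a description of letters and shows no binding.

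Sox2, the HMG-box factor of foregut and gastric progenitors, lies on chromosome 3 at 34650405 to 34652461 on the plus strand. It stood at 29.0, 32.5 and 22.1 FPKM in Ctrl 1 to 3, against 21.0, 8.70 and 13.7 FPKM in WT 1 to 3. The groups did not overlap, although Ctrl 3 and WT 1 were close. The ratio of means was 1.93, with log2FC 0.96, SE 0.29, adjusted p = 0.0643 in limma, and adjusted p = 0.0457 with the replicate block. Without WT 2, its lowest library, log2FC was 0.67, and without WT 1 it was 1.26 with adjusted p = 0.0269. Arid1a_Het 1 to 3 held 20.4, 18.4 and 27.0 FPKM, overlapping with both other genotypes. Against WT the log2FC was 0.63, SE 0.29, adjusted p = 0.312, and against Ctrl it was -0.33, SE 0.29, adjusted p = 0.628. Squamous forestomach also expresses Sox2, and 2 of its 8 tested markers rose in Ctrl, Sprr1a and Pax9, where 7.01% of all genes rose. The keratins Krt5, Krt14 and Krt13, which define it, did not pass in limma (adjusted p = 0.520, 0.716 and 0.580). Their means were 3.96, 2.58 and 18.3 FPKM in Ctrl and 3.68, 2.38 and 43.0 FPKM in WT. The WT means rested mainly on WT 1, where Krt5, Krt14 and Krt13 were at 10.74, 6.56 and 125.7 FPKM. They were at 0.278, 0.562 and 0.855 FPKM in WT 2 and at 0.0393, 0.0245 and 2.36 FPKM in WT 3. The Ctrl libraries lay between, at 3.52 to 4.57 FPKM for Krt5, 1.68 to 3.325 FPKM for Krt14 and 14.7 to 24.1 FPKM for Krt13. Over 12 squamous markers the summed level was 241 to 1039 FPKM in Arid1a_Het, 287 to 746 FPKM in Ctrl and 46.5 to 566 FPKM in WT. Sprr1a made up 219.3 of 287 FPKM in Ctrl 1, 647.3 of 746 FPKM in Ctrl 3 and 74.4 of 566 FPKM in WT 1. The part of this tissue in the Sox2 level was not tested. Sox2 lies inside the long noncoding gene Sox2ot on the same strand, which was at no more than 0.0511 FPKM in any library.

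Gata4 and Gata6, zinc finger factors that are known to bind GATA sites in the proton pump genes Atp4a and Atp4b, were both lower in every Ctrl library than in every WT library, and both missed the threshold. Gata4, on chromosome 14 at 63198922 to 63271692, stood at 65.3, 67.7 and 66.9 FPKM in Ctrl 1 to 3, against 104.7, 81.1 and 101.2 FPKM in WT 1 to 3. The Ctrl libraries lay within 3 FPKM of each other and all below WT. The ratio of means was 0.697, with log2FC -0.51, SE 0.19, adjusted p = 0.106, or -0.74 relative to the median of all genes. Gata4 missed the threshold here and passed when libraries were rescaled by median ratios, with log2FC -0.77 and adjusted p = 0.0374.

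Gata6, on chromosome 18 at 11052064 to 11085635, stood at 29.4, 37.0 and 27.4 FPKM in Ctrl 1 to 3, against 48.8, 47.8 and 45.0 FPKM in WT 1 to 3. The groups did not overlap, and the WT libraries were close together. The ratio of means was 0.662, with log2FC -0.59, SE 0.18, adjusted p = 0.0677, and adjusted p = 0.0259 with the replicate block. It also passed without Arid1a_Het 3 (adjusted p = 0.0369) and with median-ratio scaling (log2FC -0.85, adjusted p = 0.0499). The opposite-strand gene 1010001N08Rik overlaps Gata6, at 5.14, 8.61 and 5.999 FPKM in Ctrl and 8.24, 10.1 and 18.1 FPKM in WT. Whether strand was used in counting is not given in the sources used here, so reads of the overlap cannot be told apart.

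With a floxed Arid1a copy the mean of both GATA factors was below that of WT. Gata4 stood at 85.1, 71.0 and 52.7 FPKM in Arid1a_Het 1 to 3, with only Arid1a_Het 1 inside the WT range, and against WT the log2FC was -0.47, SE 0.19, adjusted p = 0.230. Gata6 stood at 38.1, 42.0 and 27.6 FPKM in Arid1a_Het 1 to 3, all below WT, and against WT the log2FC was -0.41, SE 0.18, adjusted p = 0.293. Neither passed the threshold. Against Ctrl the log2FC was 0.03 for Gata4 (adjusted p = 0.944) and 0.18 for Gata6 (adjusted p = 0.668). The direction of both factors against WT was lower under all 22 alternatives, in Ctrl and in Arid1a_Het alike.

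Parietal cell markers were lower in Ctrl as well. Of 11 such genes 7 fell and 0 rose in Ctrl against WT, where 3.04% of all genes fell and 7.01% rose. The median log2FC of the 11 was -2.47, and that of all genes was 0.24. The count of 7 became 1 without any of Ctrl 1, Ctrl 3, WT 2 or WT 3, and 4 without Ctrl 2 or with voom. The summed level was 1453 to 5687 FPKM in Arid1a_Het, 1123 to 2006 FPKM in Ctrl and 3969 to 14770 FPKM in WT. In Arid1a_Het the library with the lowest sum, Arid1a_Het 3 at 1453 FPKM, also had the least Gata4 and Gata6, and Arid1a_Het 2 had the highest sum and the most Gata6, while Gata4 was highest in Arid1a_Het 1. In Ctrl the sum and Gata4 were both lowest in Ctrl 1 and highest in Ctrl 2, and Gata6 was highest in Ctrl 2 and lowest in Ctrl 3. In WT the highest sum, 14770 FPKM, and the least Gata4 were in WT 2, the lowest sum and the most of both factors in WT 1, and the least Gata6 in WT 3. The part of parietal cell number in the GATA levels was not tested. Among the markers Atp4b had log2FC -3.62, SE 0.96, adjusted p = 0.0443, a call that was lost in 10 of 22 alternatives, among them without any of Arid1a_Het 1, Ctrl 1, Ctrl 2, Ctrl 3, WT 2 or WT 3 (adjusted p up to 0.145).

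The level of Gata4 relative to Gata6 overlapped between the genotypes. The within-library difference of log2(FPKM + 1) averaged 1.08 ± 0.21 in Ctrl and 0.995 ± 0.21 in WT (SD, n = 3). They differed by 0.084, and the exact permutation test, two-sided, gave p = 0.6. In Arid1a_Het it was 0.93 ± 0.20, with p = 0.5 against Ctrl and p = 0.7 against WT by the same exact test. Gata4 was 1.69 to 2.44 times as high as Gata6 in every library.

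Hnf4a, a nuclear receptor of gastric, intestinal and liver epithelium, lies on chromosome 2 at 163506808 to 163572910 on the plus strand. It stood at 78.8, 63.9 and 81.5 FPKM in Ctrl 1 to 3, against 66.2, 33.7 and 57.6 FPKM in WT 1 to 3. Ctrl 2 lay below WT 1, so the groups overlapped. The ratio of means was 1.42, with log2FC 0.55, SE 0.27, adjusted p = 0.186, and adjusted p = 0.0401 with the replicate block, where each Ctrl library exceeds the WT library of its number. Without WT 2 the log2FC was 0.26. Arid1a_Het 1 to 3 held 87.0, 52.5 and 70.9 FPKM, and neither of its comparisons passed (adjusted p = 0.867 against Ctrl and 0.470 against WT). The row does not tell its start sites apart.

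Klf4 and Klf5 are zinc finger factors with contrary roles in gut epithelium: Klf4 marks mature, non-dividing surface cells, and Klf5 marks dividing cells. Klf5, on chromosome 14 at 99298691 to 99315036, stood at 97.8, 93.9 and 93.3 FPKM in Ctrl 1 to 3, against 80.1, 40.9 and 71.2 FPKM in WT 1 to 3. All Ctrl libraries were above WT, with log2FC 0.62, SE 0.26, adjusted p = 0.138. Klf4, on chromosome 4 at 55527143 to 55532466, stood at 247.5, 200 and 197.5 FPKM in Ctrl 1 to 3, against 354.1, 239.3 and 224.7 FPKM in WT 1 to 3. The groups overlapped, with log2FC -0.32, SE 0.23, adjusted p = 0.337. Neither gene passed the threshold in Ctrl against WT.

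Set against each other within a library, the pair did not overlap between Ctrl and WT. The difference of log2(FPKM + 1), Klf4 minus Klf5, was 1.33, 1.08 and 1.07 in Ctrl 1 to 3, against 2.13, 2.52 and 1.65 in WT 1 to 3. Every Ctrl library lay below every WT library. The means were 1.16 ± 0.15 in Ctrl and 2.10 ± 0.44 in WT (SD, n = 3), a difference of -0.94. The exact permutation test, two-sided, gave p = 0.1, the smallest that 3 against 3 libraries can give, and 0.75 after adjustment over 9 such tests. In Arid1a_Het 1 to 3 the difference was 1.75, 1.86 and 0.98, and Arid1a_Het 3 was the lowest of all 9 libraries. Its mean of 1.53 ± 0.48 overlapped with both other genotypes (exact permutation p = 0.4 against Ctrl and 0.3 against WT). Klf5 itself was at 92.9, 62.7 and 98.8 FPKM in Arid1a_Het and Klf4 at 313.9, 230.3 and 196 FPKM. For neither gene did a comparison with Arid1a_Het pass (adjusted p = 0.459 to 0.838).

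**Figure D3:**
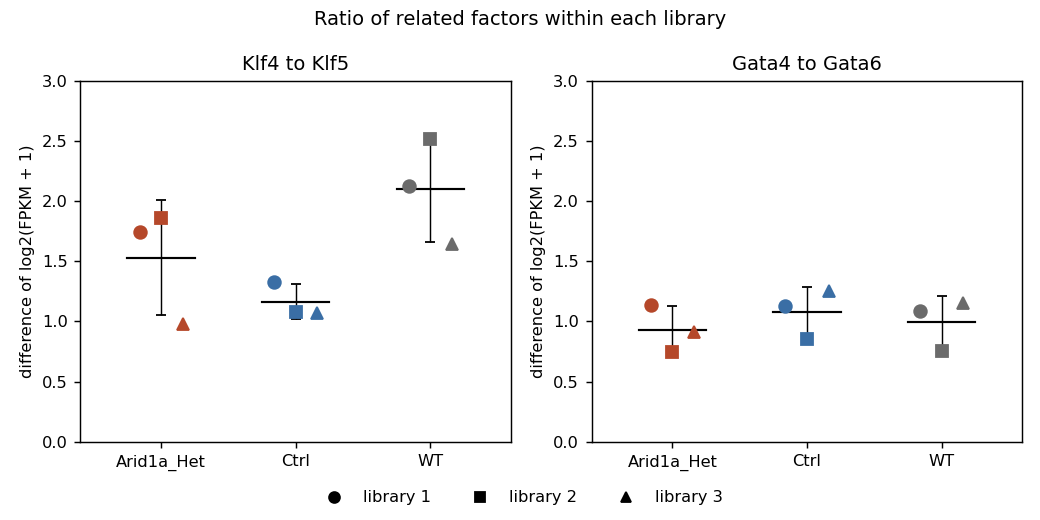
Difference of log2(FPKM + 1) within each library (vertical axis) for Klf4 minus Klf5 and for Gata4 minus Gata6 in Arid1a_Het, Ctrl and WT, with 1 symbol per library and the mean ± SD of 3 libraries. For Klf4 to Klf5 the Ctrl libraries lie between 1.07 and 1.33 and the WT libraries between 1.65 and 2.52, while Gata4 to Gata6 overlaps between all genotypes.

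Foxq1, a forkhead factor needed for Muc5ac expression in mouse surface mucous cells, was among the steadiest of the factors. It lies on chromosome 13 at 31556134 to 31560976. Its level was 212.8, 194.3 and 170.7 FPKM in Arid1a_Het 1 to 3, 187.4, 195.1 and 155.9 FPKM in Ctrl 1 to 3, and 189.5, 135.9 and 157.1 FPKM in WT 1 to 3. All 3 genotypes overlapped, and the highest library was 1.57 times the lowest. In Ctrl against WT the log2FC was 0.16, SE 0.17, adjusted p = 0.501, and with median-ratio scaling the value was -0.10. Its target Muc5ac, the surface mucin, stood at 574.1, 140.8 and 505.1 FPKM in Ctrl 1 to 3, against 1542, 1146 and 905.7 FPKM in WT 1 to 3. Muc5ac fell, with log2FC -1.76, SE 0.48, adjusted p = 0.0484, close to the threshold, and the call was lost in 15 of 22 alternatives, among them without any single library other than Arid1a_Het 2 (adjusted p up to 0.126). Of 9 surface mucous cell markers, Muc5ac among them, 4 fell and 1, Krt20, rose in Ctrl against WT. Over all genes 3.04% fell and 7.01% rose. The part of surface cell number in the Muc5ac level was not tested.

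Pdx1, the homeodomain factor of antrum, duodenum and pancreas, varied more between libraries of a genotype than between genotypes. It lies on chromosome 5 at 147269959 to 147275848. Its level was 5.56, 2.57 and 9.64 FPKM in Arid1a_Het 1 to 3, 13.2, 6.47 and 7.18 FPKM in Ctrl 1 to 3, and 13.8, 1.27 and 6.70 FPKM in WT 1 to 3. The highest library was 10.9 times the lowest, and both lay in WT. In Ctrl against WT the log2FC was 0.58, SE 0.64, adjusted p = 0.524, and it was -0.16 without WT 2. In Arid1a_Het against Ctrl it was -0.60, SE 0.64, adjusted p = 0.687.

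The libraries with most Pdx1 were also among those with most of the antral genes. Gast, the hormone gastrin of antral G cells, was at 48.9, 0.154 and 3139 FPKM in Arid1a_Het 1 to 3, 1386, 373.4 and 13.4 FPKM in Ctrl 1 to 3, and 3381, 573.2 and 2284 FPKM in WT 1 to 3. Nkx6-3, a homeodomain factor of antral endocrine cells, was at 4.52, 0.900 and 25.4 FPKM in Arid1a_Het, 38.6, 11.3 and 7.77 FPKM in Ctrl, and 48.5, 3.87 and 33.5 FPKM in WT. Arid1a_Het 3, Ctrl 1 and WT 1 had the most Pdx1 in their genotypes, and also the most Gast and Nkx6-3. Arid1a_Het 2 had the least of all 3 genes in its genotype, and WT 2 the least in WT. In Ctrl the least Pdx1 was in Ctrl 2, and the least Gast and Nkx6-3 in Ctrl 3. The summed level of the 5 antral markers was 54.4 to 3318 FPKM in Arid1a_Het, 94.2 to 1529 FPKM in Ctrl and 725 to 3640 FPKM in WT, and its part in the Pdx1 level was not tested. Cpa1 was detected in 2 of these 3 libraries, Arid1a_Het 3 and Ctrl 1, whereas WT 1 had the highest Pdx1 level with Cpa1 listed at 0.

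Cdx2, the caudal-type homeodomain factor of intestine, lies on chromosome 5 at 147300805 to 147307270. It was close to the limit of detection in 8 of the 9 libraries. It had 0, 2 and 7 reads in Arid1a_Het 1 to 3, 113, 0 and 1 reads in Ctrl 1 to 3, and 7, 2 and 0 reads in WT 1 to 3. Only Ctrl 1 stood out, at 2.20 FPKM with a 95% Poisson interval of 1.82 to 2.65 FPKM, which covers counting error only. The other 8 libraries were at 0.133 FPKM or less, and 3 reads, taken as the floor for a count of 0, would be 0.0463 FPKM in Arid1a_Het 1, 0.0450 FPKM in Ctrl 2 and 0.0571 FPKM in WT 3. The groups overlapped in all comparisons, and the exact permutation test, two-sided, gave p = 0.9 for Ctrl against WT and p = 0.9 and 0.8 for Arid1a_Het set against Ctrl and against WT.

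Of the 15 intestinal markers 9 had their highest level in Ctrl 1, and the other 6 had it in another library. Fabp2, a fatty acid binding protein of enterocytes, was at 62.8 FPKM in Ctrl 1 and highest in WT 1, at 165.1 FPKM. Apoa4, an intestinal apolipoprotein, was at 37.6 FPKM in Ctrl 1 and highest in WT 2, at 139.6 FPKM. Fcgbp was highest in WT 1, Lct in WT 2, Gpa33 in Arid1a_Het 3 and Olfm4 in Ctrl 2. The genes described next are among the 9 and were chosen after their values were seen. Cdx1, its close relative, was at 0.958 FPKM in Ctrl 1 and at most 0.0492 FPKM elsewhere. Sucrase-isomaltase, Sis, an enzyme of the intestinal brush border, was at 1.65 FPKM in Ctrl 1 and listed at 0 in the other 8 libraries. The goblet cell genes Reg4, at 8.12 FPKM in Ctrl 1 and at most 0.0337 FPKM elsewhere, and Tff3, at 42.6 FPKM in Ctrl 1 and at most 9.18 FPKM elsewhere, followed the same library. Cdh17, a cadherin gene that Cdx2 activates, was at 0.843, 0.142 and 1.22 FPKM in Arid1a_Het 1 to 3, 9.72, 0.659 and 2.05 FPKM in Ctrl 1 to 3, and no more than 0.0578 FPKM in WT. Over the 15 intestinal markers the summed level was 71.5 to 264 FPKM in Arid1a_Het, 136 to 420 FPKM in Ctrl and 154 to 475 FPKM in WT. Of 8 tested in Ctrl against WT 0 passed in limma or in voom, where 10.1% of all genes passed in limma. An unadjusted p under 0.05 was found for 3 of the 8, where 32.1% of all genes had one. With the replicate block 2 of the 8 passed, where 22.1% of all genes did. With array weights 6 passed, where 50.9% of all genes did, and all were higher in Ctrl. Ctrl 1 also had the highest Cpa1 level. The part of pancreas transcripts in its Cdx2 level was not tested. On the log2(FPKM + 1) scale Sox2 exceeded Cdx2 by 4.27 ± 0.94 in Ctrl and 3.80 ± 0.53 in WT (SD, n = 3, exact permutation p = 0.5). The smallest gaps were in Ctrl 1 and WT 2, at 3.23 in both, but they are not alike. Sox2 and Cdx2 were at 29.0 and 2.20 FPKM in Ctrl 1 and at 8.70 and 0.0336 FPKM in WT 2. Where Cdx2 is this low, the gap mostly follows Sox2 and the pseudocount. With pseudocounts of 0.1 and 0.01 the difference between Ctrl and WT changed sign, to -0.021 and -0.056.

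**Figure D4:**
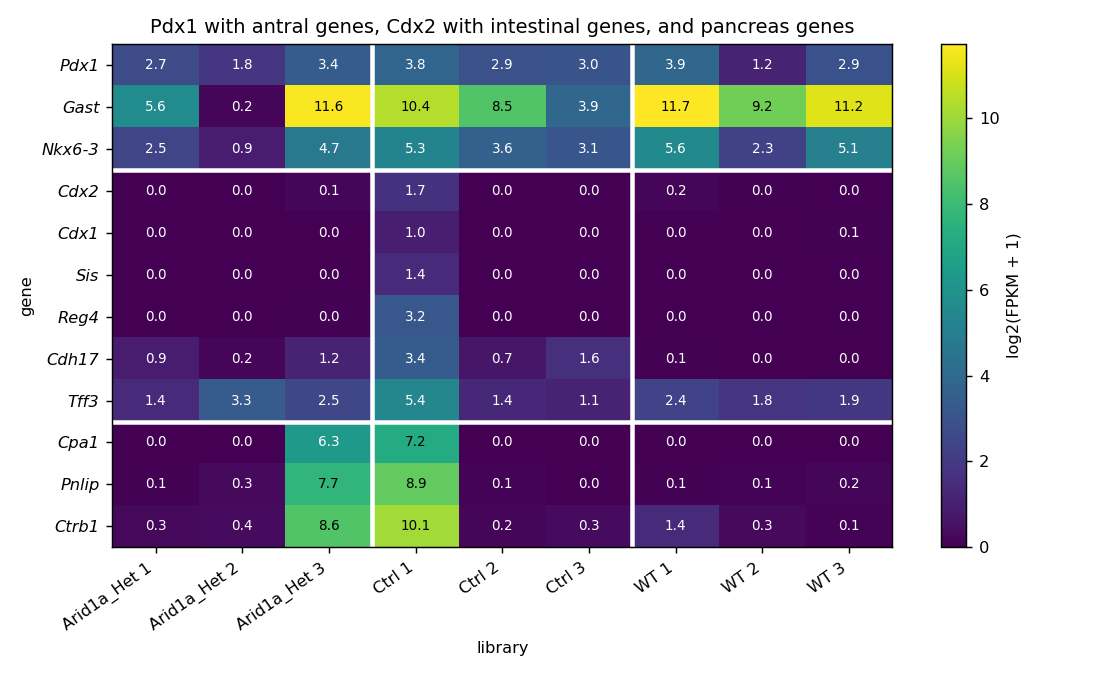
log2(FPKM + 1) of Pdx1 with the antral genes Gast and Nkx6-3 (top), of Cdx2 with intestinal genes (middle) and of pancreas genes (bottom) in the 9 libraries, as colour and as printed values. The intestinal genes drawn, Cdx1, Sis, Reg4, Cdh17 and Tff3, were chosen after their values were seen and are all highest in Ctrl 1. Intestinal markers that are highest in other libraries, such as Fabp2 and Apoa4, are not drawn. Cdx2, Cdx1, Sis and Reg4 stand out in Ctrl 1, where Cdx2 is at 2.20 FPKM, and the pancreas genes in Arid1a_Het 3 and Ctrl 1.

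In Arid1a_Het against Ctrl 0 of the 9 tested factors passed in limma, 0 had an unadjusted p under 0.05, where 11.6% of all genes did, and 0 passed with limma voom on whole reads, while 0.00892% of all genes were called. Only Spdef had groups that did not overlap, against 24.7% of all genes. The median log2FC of the factors was -0.11 and that of all genes -0.16. In Arid1a_Het against WT 0 of 9 passed, where 2.75% of all genes were called, and 0 passed with voom. With array weights 1 factor, Gata4, passed, where 12.3% of all genes did. Spdef and Gata4 had an unadjusted p under 0.05, 2 of 9, where 17.2% of all genes did, and Spdef and Gata6 had groups that did not overlap, where 19.2% of all genes did. The median log2FC was 0.27 for the factors and 0.02 for all genes. Both comparisons with WT share the WT libraries, so the values of Ctrl and Arid1a_Het are given side by side and not as separate evidence.

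Among other endoderm factors, of 19 tested of a list of 21, Onecut2 and Sox9 rose and Foxa2 fell in Ctrl against WT. In that comparison 7.01% of all genes rose and 3.04% fell. The list median was 0.19 where that of all genes was 0.24. Onecut2, a factor of pancreatic, biliary and endocrine precursors, stood at 30.9, 30.2 and 50.01 FPKM in Ctrl, against 0.617, 0.238 and 0.125 FPKM in WT. Its log2FC was 4.82, SE 0.47, adjusted p = 0.00111, and the call held in all 22 alternatives. It was also higher in Arid1a_Het, at 18.5, 7.18 and 37.0 FPKM, with log2FC 3.80, SE 0.47, adjusted p = 0.00391 against WT, the only gene of the list that passed in that comparison. These increases are larger than that of any of the 9 tested members.

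Sox9, a progenitor and ductal factor, stood at 41.9, 45.6 and 29.2 FPKM in Ctrl, against 24.6, 15.9 and 21.5 FPKM in WT, with log2FC 0.88, SE 0.21, adjusted p = 0.0337. Foxa2, a pioneer forkhead factor of endoderm, stood at 15.1, 19.2 and 15.8 FPKM in Ctrl, against 31.9, 28.5 and 31.6 FPKM in WT, with log2FC -0.84, SE 0.22, adjusted p = 0.0400. Each lost its call in 7 of 22 alternatives, Sox9 without any of Ctrl 1, Ctrl 2, WT 2 or WT 3 and Foxa2 without any Ctrl or WT library (adjusted p up to 0.130). With the replicate block 5 genes of the list rose and 1 fell, where 22.1% of all genes passed. Gata5, the third GATA factor of the gut, was at 28.1, 33.8 and 32.8 FPKM in Ctrl, against 30.5, 20.0 and 30.6 FPKM in WT (log2FC 0.24, adjusted p = 0.375).

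Of 6 tested intestinal factors of a list of 12, 0 passed in any of the 3 comparisons in the limma fit reported or in voom. In Ctrl against WT 3 rose with array weights, where 50.9% of all genes passed, and 1 rose without Ctrl 2. An unadjusted p under 0.05 was found for 0 in Ctrl against WT, where 32.1% of all genes had one. It was found for 2 in Arid1a_Het against Ctrl (11.6% of all genes) and for 0 in Arid1a_Het against WT (17.2%). Cdx1 and Atoh1 were below the filter. Of 8 tested secretory and endocrine factors, Creb3l1 rose and Esrrg fell in Ctrl against WT, where 7.01% of all genes rose and 3.04% fell. Creb3l1, a secretory pathway factor known as a Spdef target, stood at 78.4, 86.0 and 54.0 FPKM in Ctrl, against 41.5, 33.7 and 44.9 FPKM in WT, with log2FC 0.83, SE 0.23, adjusted p = 0.0490. The call was lost in 14 of 22 alternatives, among them without any single Ctrl or WT library or without Arid1a_Het 1 (adjusted p up to 0.146). Esrrg, an estrogen-related receptor of parietal cells, fell with log2FC -3.02, SE 0.71, adjusted p = 0.0297, and lost its call in 6 alternatives, among them without any of the Ctrl libraries, WT 2 or WT 3 (adjusted p up to 0.108).

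Of 17 tested genes listed as targets of the factors, or as regulated with them, 2 rose and 4 fell in Ctrl against WT. In that comparison 7.01% of all genes rose and 3.04% fell. The median log2FC of the 17 was -0.16. Creb3l1 and the cell cycle gene Ccnd1 rose, and Muc5ac, Atp4b, the apolipoprotein gene Apoa1, known in liver as an Hnf4a target, and Sst, the hormone somatostatin, fell. Sst stood at 19.7, 13.1 and 7.04 FPKM in Ctrl, against 175.2, 140.2 and 143.2 FPKM in WT, with log2FC -3.53, SE 0.49, adjusted p = 0.00465, a call held in all 22 alternatives, and it also fell in Arid1a_Het against WT (log2FC -3.25, adjusted p = 0.0113). Of 6 tested endocrine cell markers, Sst among them, 4 fell and 0 rose in Ctrl against WT, where 3.04% of all genes fell. The part of endocrine cell number in the Sst level was not tested. With the replicate block 3 of the 17 listed targets rose and 6 fell, where 22.1% of all genes passed. Ccnd1, at 89.5, 109.4 and 80.2 FPKM in Ctrl against 32.7, 18.0 and 31.7 FPKM in WT, had log2FC 1.76, SE 0.36, adjusted p = 0.0191. It was also higher in Arid1a_Het, at 106.9, 54.9 and 150.4 FPKM, with log2FC 1.82, SE 0.36, adjusted p = 0.0315 against WT. The first call was lost without any of Ctrl 1, Ctrl 2, Ctrl 3 or WT 2 (adjusted p up to 0.0672) and the second in 11 alternatives, among them without any single library other than Arid1a_Het 2 (adjusted p up to 0.137). Apoa1 had log2FC -3.70, SE 0.81, adjusted p = 0.0243, a call lost in 6 of 22 alternatives. These were the fits with no filter, without the pancreas libraries, and without any of Ctrl 1, Ctrl 3, WT 2 or WT 3 (adjusted p up to 0.0885). Agr2, a secretory folding protein known as a Spdef target, stood at 1098, 418.2 and 400 FPKM in Ctrl and 978.9, 230 and 769.4 FPKM in WT, with log2FC 0.03 and adjusted p = 0.975.

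The genes whose profile over the 9 libraries was nearest to a factor were found by the root mean square difference of log2(FPKM + 1), each gene centred on its own mean. For Sox2, whose own spread was 0.52 on this measure, the nearest was Ehf, an epithelial ETS factor, at 0.13, followed by the DNA synthesis genes Tk1 and Gins2 at 0.13 and 0.14. Spdef, with a spread of 0.52, had Trim14 and the adhesion molecule Alcam nearest at 0.18 each, and Alcam averaged 52.7 FPKM in Ctrl and 25.9 FPKM in WT. Pdx1, with a spread of 0.83, had the mitotic motor Kif11 nearest at 0.33, and Klf4, with a spread of 0.28, had Plcd1 nearest at 0.14. Foxq1 (spread 0.19) was nearest to Anp32a at 0.07. Klf5 (spread 0.39) was closest to Cbfb and Hnf4a (spread 0.39) to Ttc22, both at 0.05. Gata6 (spread 0.31) was nearest to Akr1c13 at 0.09. With 9 libraries of 3 genotypes these likenesses describe the samples, and all share library depth and composition.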

How the data were processed

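The authors deposited FPKM values per gene in 9 libraries, which were tested as deposited. Per the submitters' processing notes STAR 2.4.2a and the builds GRCm38 and mm10 were used, and the labels' protocols name a stranded mRNA library kit. The tool that counted reads, its annotation, use of strand and treatment of reads with several matches are not given in the sources used here. Whole reads were worked out from the FPKM steps within a tolerance of 0.01 and came to 22651385 to 29478481 per library.

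Groups follow the labels' titles. limma 3.58.1 in R 4.3.3 (eBayes with an intensity trend, pseudocount 1) was fitted to all 9 libraries as 3 group means, for genes whose FPKM reached 1 in 3 or more libraries. The fit was tested on simulated data. Exact permutation tests were used for Cdx2 and for ratios within a library. The 22 alternatives cover pseudocounts, filters, scaling, weights, voom on whole reads, the replicate block and left-out libraries. Same-numbered Ctrl and WT libraries had deviations correlated at 0.207, 0.336 and 0.138 over the genes tested. All were above 0.1, so equal numbers were treated as pairs, on the data alone. For Arid1a_Het and Ctrl (-0.151, 0.467 and -0.0202) and for Arid1a_Het and WT (0.252, 0.563 and -0.279) not all were above 0.1. The block fit was still run on all 9 libraries, so the numbers of Arid1a_Het entered its replicate term too. The members, lists and naming rule (all 10 members, up to 6 genes of lowest p per list, any other gene called, and the nearest profiles) were chosen with earlier results of these data known. The nearest profile of Gata4 is not reported here. Gene positions are from GENCODE M21 on GRCm38 and promoters from RefSeq. Python 3.11.15 was used.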

Additional observations from a re-analysis of the deposited data

How the results depend on the processing

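In Ctrl against WT 1 factor was called in the fit reported. The count was 3 with median-ratio scaling, 2 with quantile normalization, 7 with array weights (whose estimate stopped short of its tolerance, and where 50.9% of all genes were called), 4 with the replicate block (which changed no other call of a factor), and 0 to 2 when single libraries were left out. In Arid1a_Het against WT it was 0, and 1 with array weights. In Arid1a_Het against Ctrl it was 0 under all 22 alternatives. Over all genes 1127 were called in Ctrl against WT, 2473 with the replicate block, 5710 with array weights, 748 with a minimum FPKM of 5, 574 without the pancreas libraries and 251 to 1473 with single libraries left out. Changes of sign occurred among factors that had missed the threshold. In Ctrl against WT these were Foxq1 with median-ratio scaling (-0.10), Klf4 with array weights (0.0064) and Pdx1 with libraries left out (-0.16 to 1.19). In Arid1a_Het against Ctrl median-ratio scaling gave 0.11 for Hnf4a and 0.030 for Klf5. Leaving out libraries gave -0.12 to 0.22 for Gata4, -0.28 to 0.080 for Hnf4a, -0.0091 to 0.33 for Klf4 and -0.31 to 0.012 for Klf5. In Arid1a_Het against WT Pdx1 gave 0.062 and 0.076 with pseudocounts of 0.1 and 0.01, 0.14 with voom and -0.76 to 0.59 with libraries left out. Klf4 gave 0.089 with array weights, 0.00996 without the pancreas libraries and -0.33 to 0.061 with libraries left out. The Sox2 to Cdx2 ratio in Ctrl against WT gave -0.021 and -0.056 with pseudocounts of 0.1 and 0.01, and in Arid1a_Het against Ctrl -0.35 to 0.57 with libraries left out. The Gata4 to Gata6 ratio gave -0.038 to 0.20 in Ctrl against WT and -0.19 to 0.028 in Arid1a_Het against WT with libraries left out. The cause of these changes was not tested. With 3 libraries per genotype the exact tests cannot give p below 0.1. Median-ratio scaling moved the median log2FC of all genes to 0.0087 in Ctrl against WT, where it was 0.24 in the fit reported. Low Cdx2 levels are limited by depth.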
